A study of Mus musculus with 12 samples.

Results

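Notch signaling and secretory cell fate in the mouse intestine were followed through 10 genes. They were chosen by name, and all 10 were found once each among the 54532 genes of both tables: the receptors *Notch1* and *Notch2*, the ligands *Dll1*, *Dll4* and *Jag1*, the target gene *Hes1*, and the transcription factors *Atoh1*, *Gfi1*, *Spdef* and *Neurog3*. RNA-seq was carried out on 12 libraries, 3 in each of 4 groups of adult, untreated mice. Small intestinal crypts came from wild type and ieCtnnb1KO mice, and colon tumors came from APCmin/+ and APCmin/+;ieCtnnb1KO mice. In ieCtnnb1KO mice an intestinal enhancer of *Ctnnb1*, the gene of β-catenin, is deleted in the germline, so that all cells of the animal carry the deletion and not the epithelium alone. Both tumor groups carry the Min allele, a truncating mutation in 1 copy of *Apc*. Crypts were freed with EDTA and filtered from villi, whereas tumors were whole tissue. The question was whether the pathway and the fate genes differ between knockout and control in each tissue. The study describes the samples of a group as biological replicates from mice, and the labels do not name the animal behind each library.

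Notch receptors on a cell are activated by Delta-like and Jagged ligands on its neighbour. The receptor is then cut, and its intracellular part enters the nucleus and joins RBPJ to switch on genes such as *Hes1*. In the intestine the repressor HES1 holds down *Atoh1*, so that cells with active Notch become absorptive. Cells that express *Atoh1* and Delta-like ligands become secretory, namely goblet, Paneth or enteroendocrine cells. SPDEF acts downstream of ATOH1 in goblet and Paneth cells, GFI1 keeps these cells from the enteroendocrine fate, and NEUROG3 starts the enteroendocrine fate.

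Values are FPKM, fragments scaled to gene length and to a factor for each library, and can be compared between genes of a library. The factor was not the library total: the median ratio of genes to their geometric mean was equal in the 6 libraries of a table, while the summed FPKM ran from 401827 to 529632 in crypts and from 293329 to 346851 in tumors. The tables of crypts and tumors were scaled separately, and levels were tested only within a tissue. FPKM times gene length came out as whole multiples of a single step, within 0.05, for 100% of the values above 0, which gave the number of fragments behind each value. The crypt libraries held 14457896, 16042558 and 16074777 fragments in wild type and 15717741, 15819430 and 14685020 in ieCtnnb1KO. The tumor libraries held 15895487, 16156712 and 14648696 fragments in APCmin/+ and 16143130, 16041000 and 16064312 in APCmin/+;ieCtnnb1KO. Differences were tested with limma on log2(FPKM + 0.5) over every gene whose FPKM averaged 0.5 or more in a table, which were 14176 in crypts and 16743 in tumors, with Benjamini-Hochberg adjustment. All 10 genes passed this filter in crypts and 9 in tumors, where *Neurog3* did not. On this scale the log2 fold change of a gene with low FPKM is understated.

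The labels were checked first against *Ctnnb1* (ENSMUSG00000006932; GRCm38 chromosome 9, 120929216 to 120960507, plus strand). Its FPKM was 121, 134 and 123 in wild type crypts and 102, 104 and 105 in ieCtnnb1KO crypts, and all knockout libraries lay below all wild type libraries. The difference of the log2 means, given below as the log2 fold change, was -0.28 (standard error, SE, 0.118; limma, adjusted p = 0.849). With the libraries scaled to the same summed FPKM, called the same total below, it was -0.13, with an unadjusted p of 0.481, and the groups overlapped. Without the 50 highest genes in that total it was -0.34, with an unadjusted p of 0.035. As a share of the fragments on genes, *Ctnnb1* was lower in all knockout crypts than in any wild type crypts. In tumors the FPKM of *Ctnnb1* was 299, 363 and 358 in APCmin/+ and 279, 248 and 250.2 in APCmin/+;ieCtnnb1KO, again without overlap, with a log2 fold change of -0.39 (SE 0.128; limma, adjusted p = 0.303). The tissue labels were checked against marker genes. The most abundant epithelial marker, *Krt8*, had an FPKM of at least 1280 in every library, whereas 12 of 14 endothelial markers were under the filter in crypts and 0 of 14 in tumors. The tumor libraries of replicate 3 in both groups expressed *Xist* (FPKM 114 and 61.4) and the other 4 did not, so that sexes were mixed in the same way in both tumor groups.

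The ligands were the first set of genes compared. *Dll1* and *Dll4* encode the Delta-like ligands of secretory cells. In crypts the FPKM of *Dll1* (ENSMUSG00000014773; chromosome 17, 15367354 to 15376872, minus strand) was 13.0, 21.0 and 19.4 in wild type and 15.0, 14.1 and 12.05 in ieCtnnb1KO. The FPKM of *Dll4* (ENSMUSG00000027314; chromosome 2, 119325784 to 119335962, plus strand) was 6.47, 11.8 and 10.4 in wild type and 5.87, 5.33 and 7.93 in ieCtnnb1KO. For both genes wild type replicate 1 lay among the knockout libraries, and the other 2 wild type libraries lay above all of them. The log2 fold change was -0.34 (SE 0.198; limma, adjusted p = 0.887) for *Dll1* and -0.52 (SE 0.244; limma, adjusted p = 0.857) for *Dll4*. In tumors both ligands overlapped between the groups. *Dll1* ran from 1.43 to 1.82 in APCmin/+ and from 1.65 to 2.42 in APCmin/+;ieCtnnb1KO, and *Dll4* from 10.3 to 15.5 and from 9.84 to 15.4. *Dll4* shares 214 exonic bases with *Gm14207* on the other strand, whose mean FPKM was 3.91 in crypts and 8.38 in tumors, and whether counting used the strand is not given in the sources used here. *Jag1* (ENSMUSG00000027276; chromosome 2, 137081456 to 137116644, minus strand), a ligand of the Jagged family, ran from 1.83 to 3.14 in crypts and from 3.83 to 5.09 in tumors over all libraries, and its groups overlapped in both tissues. The sign of its log2 fold change, -0.01 in crypts and 0.02 in tumors, turned under other scalings.

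Among the receptors, *Notch1* (ENSMUSG00000026923; chromosome 2, 26457903 to 26516663, minus strand) was lower in knockout tumors. Its FPKM was 11.3, 14.4 and 14.2 in APCmin/+ tumors and 10.2, 8.34 and 8.11 in APCmin/+;ieCtnnb1KO tumors. All 3 knockout libraries lay below all 3 controls, although the gap between the nearest libraries, 11.3 and 10.2, was smaller than the control SD of 1.73. The means were 13.3 ± 1.73 and 8.87 ± 1.13 (SD, n = 3 each), a ratio of 0.666, with a log2 fold change of -0.56 (SE 0.135; limma, adjusted p = 0.269). The values rest on 1799 to 3380 fragments a library. A two-sided exact permutation test gave p = 0.1, the smallest that 3 against 3 libraries allow. In crypts the FPKM of *Notch1* ran from 2.39 to 3.02 in wild type and from 2.54 to 2.91 in ieCtnnb1KO, a log2 fold change of -0.02 whose sign turned with all libraries scaled to the same total, where the knockout libraries lay above the wild type libraries. *Notch2* (ENSMUSG00000027878; chromosome 3, 98013527 to 98150361, plus strand) overlapped between the groups in both tissues. In tumors its lowest control, 7.40, lay beside its highest knockout library, 7.44 (log2 fold change -0.14, limma, adjusted p = 0.504; without overlap at the same total), and in crypts it ran from 1.92 to 3.13 in wild type and from 1.90 to 2.11 in ieCtnnb1KO (log2 fold change -0.27, limma, adjusted p = 0.896).

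*Hes1* (ENSMUSG00000022528; chromosome 16, 30064384 to 30067796, plus strand), the target gene of the receptors, overlapped between the groups in both tissues. In crypts its FPKM was 29.6, 20.8 and 19.3 in wild type and 31.2, 24.0 and 25.6 in ieCtnnb1KO, with a log2 fold change of 0.22 (SE 0.192; limma, adjusted p = 0.907). In tumors it was 42.2, 45.3 and 41.5 in APCmin/+ and 42.3, 37.5 and 55.4 in APCmin/+;ieCtnnb1KO. The highest and the lowest tumor library were both knockouts, and the log2 fold change of 0.05 turned negative under both rescalings to a common total. The lower *Notch1* of knockout tumors stood beside a *Hes1* level that overlapped with that of the controls.

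Of the secretory factors, *Spdef* and *Atoh1* were higher in knockout tumors. The FPKM of *Spdef* (ENSMUSG00000024215; chromosome 17, 27714352 to 27728955, minus strand) was 8.90, 8.02 and 8.73 in APCmin/+ tumors and 17.3, 24.8 and 14.3 in APCmin/+;ieCtnnb1KO tumors. The lowest knockout library lay well above the highest control, and the spread was wider among the knockouts. The means were 8.55 ± 0.466 and 18.8 ± 5.40 (SD, n = 3 each), a 2.2-fold difference, with a log2 fold change of 1.06 (SE 0.193; limma, adjusted p = 0.269; exact permutation test, p = 0.1). The FPKM of *Atoh1* (ENSMUSG00000073043; chromosome 6, 64729125 to 64731245, plus strand) was 5.88, 6.60 and 6.72 in APCmin/+ and 8.88, 13.9 and 7.89 in APCmin/+;ieCtnnb1KO. The groups again did not overlap, although they did at the same total, and knockout replicate 2 was the highest library for both genes. The means of *Atoh1* were 6.40 ± 0.451 and 10.2 ± 3.24 (SD, n = 3 each), a 1.60-fold difference, with a log2 fold change of 0.60 (SE 0.205; limma, adjusted p = 0.308; exact permutation test, p = 0.1). Without knockout replicate 2 the log2 fold change of *Atoh1* was 0.36, against 0.85 for *Spdef*. *Spdef* rested on 301 to 917 fragments a library and *Atoh1* on 202 to 474.

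In crypts both genes overlapped between the groups. *Spdef* was 28.1, 44.2 and 29.1 in wild type and 21.6, 25.6 and 42.4 in ieCtnnb1KO (log2 fold change -0.20, limma, adjusted p = 0.94). *Atoh1* was 24.2, 41.1 and 24.2 in wild type and 20.3, 20.9 and 33.2 in ieCtnnb1KO (log2 fold change -0.25, limma, adjusted p = 0.921). A single library of each group, wild type replicate 2 and knockout replicate 3, was high for both factors. Without wild type replicate 2 the log2 fold change was 0.00 for both, and without ieCtnnb1KO replicate 1 it was -0.0049 for *Spdef* and -0.13 for *Atoh1*. Whether the difference between knockout and control differs between crypts and tumors was not tested.

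**Figure D1:**
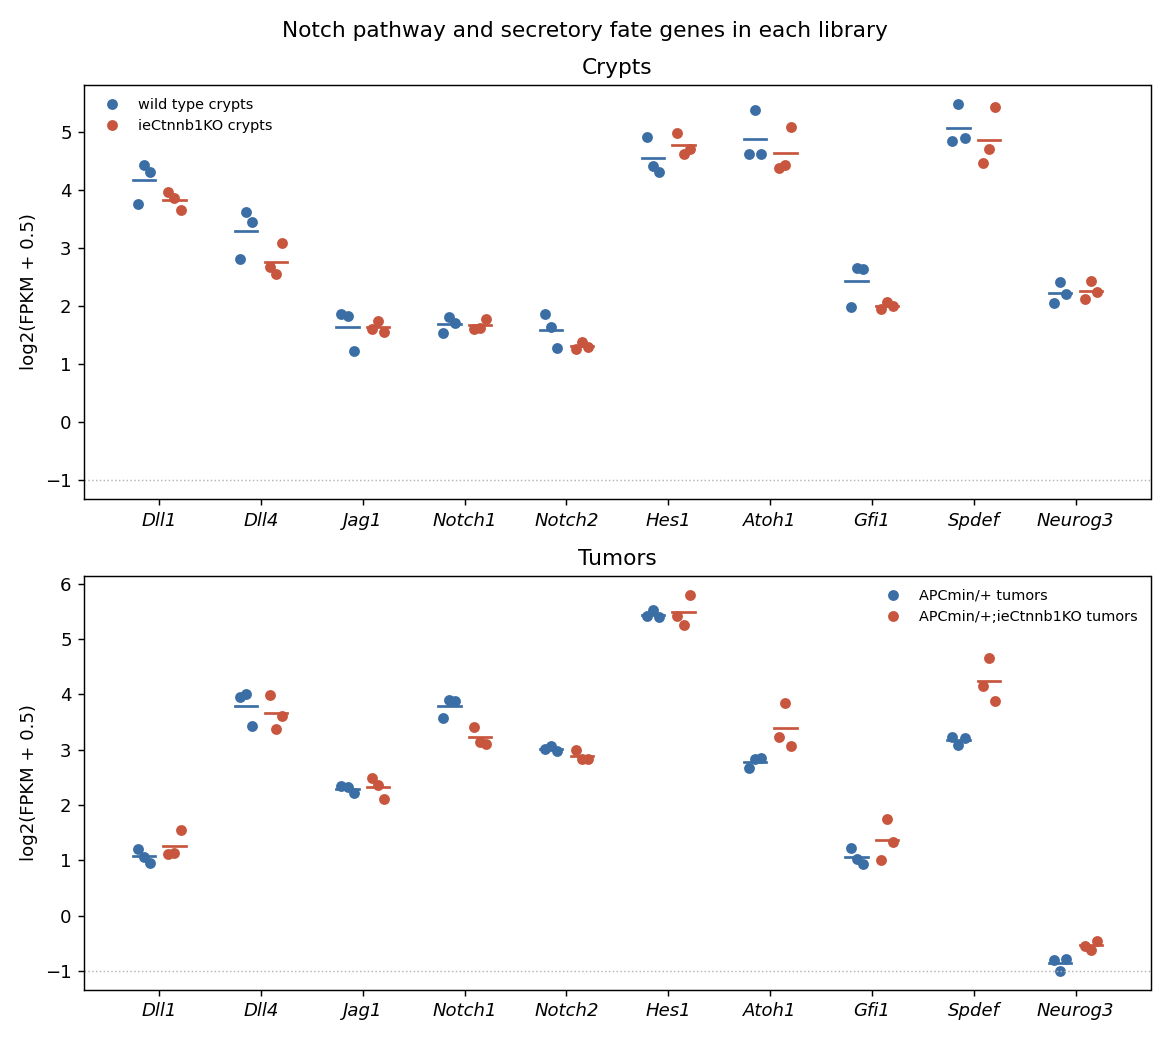
Log2(FPKM + 0.5) of the 10 genes in each of the 6 crypt libraries (top) and the 6 tumor libraries (bottom); points are libraries, short lines are group means, and the dotted line marks an FPKM of 0. *Spdef*, *Atoh1* and *Notch1* are the tested genes whose tumor groups do not overlap, whereas all 10 genes overlap in crypts; scaled to the same total, *Atoh1* overlaps in tumors, while *Notch2* in tumors and *Notch1* in crypts do not.

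The FPKM of *Gfi1* (ENSMUSG00000029275; chromosome 5, 107716657 to 107726036, minus strand) was 3.47, 5.83 and 5.70 in wild type crypts and 3.33, 3.69 and 3.51 in ieCtnnb1KO crypts. As for *Dll1* and *Dll4*, wild type replicate 1 lay within the knockout range and the other 2 above it (log2 fold change -0.42, SE 0.199; limma, adjusted p = 0.857). In tumors *Gfi1* ran from 1.41 to 1.82 in APCmin/+ and from 1.5 to 2.86 in APCmin/+;ieCtnnb1KO (log2 fold change 0.30, limma, adjusted p = 0.53). The value was 0.11 without knockout replicate 2 and 0.48 without knockout replicate 1. *Neurog3* (ENSMUSG00000044312; chromosome 10, 62133090 to 62134763, plus strand) ran from 3.67 to 4.81 in wild type crypts and from 3.85 to 4.89 in ieCtnnb1KO crypts, with a log2 fold change of 0.04 that turned negative with the total rescaled without the 50 highest genes. In tumors it was near the limit of detection, with 2, 0 and 2 fragments in APCmin/+ and 5, 4 and 6 in APCmin/+;ieCtnnb1KO. These groups did not overlap (exact permutation test, p = 0.1). However, 273 exonic bases of *Neurog3* are shared with *Fam241b* on the other strand, which had a mean FPKM of 3.76 in crypts and 4.16 in tumors. In both tissues, fragments of the genes cannot be told apart in these bases without strand.

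None of the 10 genes passed the adjusted threshold of 0.05 in either tissue, and neither did any other gene, since limma called 0 of the 14176 crypt genes (0%) and 0 of the 16743 tumor genes (0%). The tool voom, run on the recovered fragments, also called 0 in each tissue. At an unadjusted p under 0.05, limma had 494 crypt genes higher and 335 lower in the knockout and voom 452 and 293. For tumors these were 1417 and 1004 by limma and 1084 and 1522 by voom. Among the 10 genes in crypts, none reached this level by limma, where 3.48% of all tested genes were higher and 2.36% lower in ieCtnnb1KO, and *Dll4* reached it by voom. In tumors *Spdef* and *Atoh1* reached it as higher, against 8.46% of all tested genes, and *Notch1* as lower, against 6%. None of the 10 genes was without overlap in crypts, where this held for 6.79% of tested genes as higher and 5.15% as lower. In tumors *Spdef* and *Atoh1* were without overlap as higher, against 11.4% of all tested genes, and *Notch1* as lower, against 10.6%, all as deposited. The balance of directions depended on scaling. With all libraries scaled to the same total the crypt genes became 734 higher (5.18% of tested genes) and 159 lower (1.12%), and the median over all genes went from 0.01 to 0.14 on the log2 scale. With the 50 highest genes left out of that total they became 285 and 508. The tumor genes became 731 (4.37%) and 1785 (10.7%), and without the 50 highest genes 730 and 1953. Whatever their p, 10423 crypt genes and 6152 tumor genes were higher at the same total. *Spdef*, *Atoh1* and *Notch1* kept their direction in tumors under every scaling, with log2 fold changes of 0.95, 0.50 and -0.66 at the same total. *Atoh1* had an unadjusted p of 0.0734 there and of 0.0685 without APCmin/+ replicate 1, and *Notch1* one of 0.0551, with a log2 fold change of -0.45, without the libraries that express *Xist*.

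**Figure D2:**
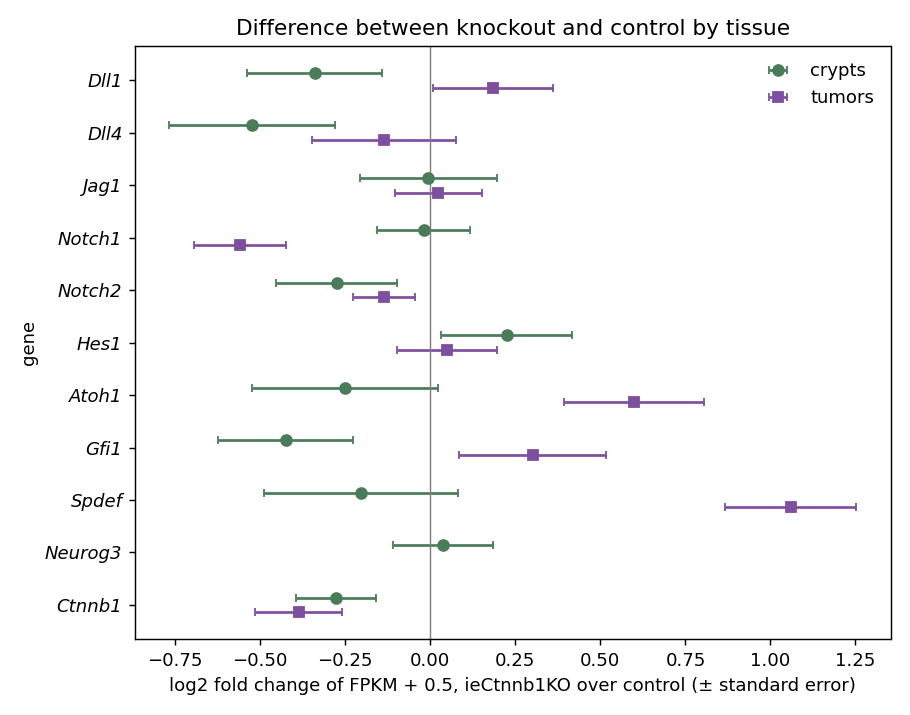
Log2 fold change of FPKM + 0.5, knockout over control, with its standard error from limma, for the 10 genes and *Ctnnb1* in crypts (circles) and tumors (squares). *Spdef* at 1.06, *Atoh1* at 0.60 and *Notch1* at -0.56 lie farthest from 0 in tumors, *Dll4* at -0.52 and *Gfi1* at -0.42 in crypts. *Neurog3* was under the filter in tumors and was tested there only with no filter.

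*Spdef* and *Atoh1* were higher together in knockout tumors, and the bases before their transcription start are therefore shown, from RefSeq on GRCm38.p6, 5′ to 3′ on the strand of the gene. Capitals mark matches to the motifs that were searched on both strands: TGGGAA (bound by RBPJ), CACNAG (the N box of HES factors), the E boxes CAGCTG and CAGATG (bound by factors such as ATOH1), and CTTTGA (bound by TCF/LEF, the partners of β-catenin). No match overlapped a match of another motif. The 250 bases before *Atoh1* lie at chr6:64728875-64729124 on the plus strand and overlap no annotated gene, and those before *Spdef* lie at chr17:27728952-27729201 on the minus strand, where the last 4 fall in the first exon of the gene model.
Atoh1: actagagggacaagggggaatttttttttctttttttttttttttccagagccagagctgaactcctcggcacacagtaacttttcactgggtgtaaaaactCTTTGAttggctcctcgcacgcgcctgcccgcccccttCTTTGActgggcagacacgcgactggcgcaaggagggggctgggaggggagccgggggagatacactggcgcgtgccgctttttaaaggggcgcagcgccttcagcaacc
Spdef: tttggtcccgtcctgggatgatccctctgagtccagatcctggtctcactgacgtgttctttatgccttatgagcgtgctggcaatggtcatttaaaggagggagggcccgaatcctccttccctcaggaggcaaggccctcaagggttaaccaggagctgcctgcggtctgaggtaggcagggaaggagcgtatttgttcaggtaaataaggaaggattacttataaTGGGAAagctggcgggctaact

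The *Atoh1* stretch holds CTTTGA at -148 and at -110 from the start, and the *Spdef* stretch holds TGGGAA at -22. Entries of 300 bases, 250 before to 50 after a start, were found for 9 of the 10 genes (11 entries), and not for *Hes1*. CTTTGA was found for 2 of the 9 genes, *Atoh1* and *Jag1*, and in 16.0% of all 32851 entries. TGGGAA was found for *Spdef* alone and in 25.6% of all entries, CACNAG for 5 genes and in 42.5%, CAGCTG for 3 genes and in 16.3%, and CAGATG for 0 genes and in 17.2%. The matches are a description of these letters and say nothing of binding.

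The order of the levels differed between the tissues. In wild type crypts *Spdef* (mean FPKM 33.8), *Atoh1* (29.8) and *Hes1* (23.2) were highest and overlapped with their neighbours, as did *Hes1* with *Dll1* (17.8). *Dll4* (9.53) followed without overlap, then *Gfi1* (5.0) and *Neurog3* (4.20), which overlapped, and last *Notch1* (2.73), *Jag1* (2.68) and *Notch2* (2.55), which could not be ordered beyond their spread. In ieCtnnb1KO crypts *Hes1* (26.9) stood between *Spdef* (29.8) and *Atoh1* (24.8), again with overlap, and *Neurog3* (4.32) above *Gfi1* (3.51) without overlap. In APCmin/+ tumors *Hes1* (43.0) was highest, followed by *Dll4* (13.6) and *Notch1* (13.3), which overlapped, and by *Spdef* (8.55), *Notch2* (7.61), *Atoh1* (6.40) and *Jag1* (4.40), each apart from the next. *Dll1* (1.61) and *Gfi1* (1.59) overlapped, and *Neurog3* was last. In APCmin/+;ieCtnnb1KO tumors *Spdef* (18.8) stood next to *Hes1* (45.1), overlapping with *Dll4* (12.3), and *Atoh1* (10.2) stood above *Notch1* (8.87) with overlap.

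Ratios of FPKM between genes of the same library do not depend on how libraries are scaled. Of 5 such ratios, chosen after the values were seen, 2 were without overlap between the tumor groups. Because of this choice the p of their permutation tests is a description only. *Spdef* to *Atoh1* was 1.51, 1.21 and 1.30 in APCmin/+ and 1.95, 1.78 and 1.81 in APCmin/+;ieCtnnb1KO (exact permutation test, p = 0.1). Every knockout library lay above every control for this ratio. *Notch1* to *Notch2* was 1.49, 1.84 and 1.92 against 1.37, 1.25 and 1.23 (exact permutation test, p = 0.1). *Hes1* to *Atoh1* was 7.18, 6.86 and 6.18 in APCmin/+ and 4.77, 2.69 and 7.02 in APCmin/+;ieCtnnb1KO, with knockout replicate 3 within the control range. In crypts all 5 ratios overlapped between the groups. *Dll4* to *Dll1* ran from 0.378 to 0.658 over the crypt libraries and from 4.86 to 9.72 over the tumor libraries, and *Hes1* to *Atoh1* from 0.506 to 1.54 and from 2.69 to 7.18. Tissue, its preparation, gut segment and the Min allele differ together between crypts and tumors and cannot be told apart. Sex also differs in part, since *Xist* was expressed in tumor libraries alone.

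**Figure D3:**
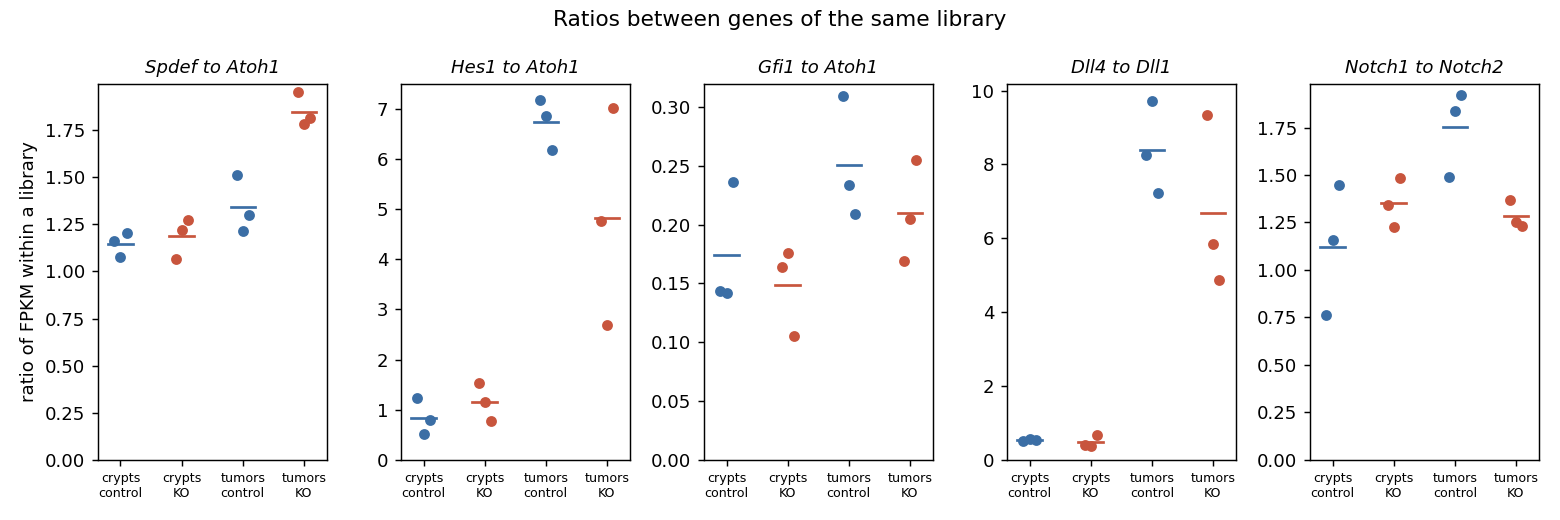
Ratio of FPKM between 2 genes of the same library for 5 pairs, in wild type and ieCtnnb1KO crypts and in APCmin/+ and APCmin/+;ieCtnnb1KO tumors; points are libraries and lines are group means. *Spdef* to *Atoh1* and *Notch1* to *Notch2* separate the tumor groups, while all pairs overlap in crypts.

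Other genes of the Notch pathway were taken from lists of 69 genes: further receptors and ligands, processing enzymes, trafficking factors, nuclear cofactors and targets. In crypts 54 were tested, of which 25 were higher and 29 lower in ieCtnnb1KO, with a median log2 fold change of -0.03 against 0.01 over all tested genes. With the same total 41 were higher and 13 lower, against 10423 and 3753 of all tested genes, and without the 50 highest genes in it 17 were higher and 37 lower. By limma none had an adjusted p under 0.05 and 0 an unadjusted p under 0.05, against 1 by voom. An unadjusted p under 0.05 was reached by 3 without wild type replicate 1, beside 4.94% of all tested genes higher and 4.54% lower. It was reached by 2 without wild type replicate 2, beside 2.24% and 1.93%, and by 1 without ieCtnnb1KO replicate 3, beside 2.95% and 2.38%. *Hey2* was listed at 0 in every crypt library. In tumors 56 were tested, of which 24 were higher and 32 lower, with a median of -0.05 against 0.01 over all tested genes, and none passed adjustment. At an unadjusted p under 0.05, 5 of the 56 were higher and 2 lower, against 8.46% and 6% of all tested genes, so that as deposited the counts are near or below those of all genes. Among the higher ones were *Mib2*, a ubiquitin ligase that acts on Notch ligands (FPKM 8.89, 8.06 and 7.43 against 10.1, 11.7 and 12.6), *Nov*, also named *Ccn3* (12.03, 10.7 and 14.9 against 27.3, 19.6 and 17.1), and *Notch4*, a receptor of endothelial cells (4.97, 4.83 and 3.24 against 6.73, 6.36 and 6.24). *Aph1a*, named after its values were seen, was also higher (log2 fold change 0.25). The 2 lower genes were *Kdm5a*, a histone demethylase (8.03, 8.07 and 9.05 against 6.58, 6.85 and 5.29), and *Ep300*, a histone acetyltransferase recruited by the Notch complex (12.3, 13.9 and 13.1 against 10.2, 12.01 and 9.05). Of the 19 tested nuclear cofactors, 17 were lower, against 8157 of all 16743 tested genes, and 2 of them were at this level, against 6%. At the same total 19 were lower, against 10591 of all tested genes, and 6 were at this level, against 10.7%. Without the libraries that express *Xist*, 17 cofactors were lower and 0 were at this level, against 2.97%. Of the 14 tested processing enzymes, 2 were higher and 0 lower at this level as deposited, against 8.46% and 6% of all tested genes. At the same total 0 of these enzymes were higher and 5 lower, against 4.37% and 10.7%. By voom 2 were higher and 3 lower, against 6.47% and 9.09%. The 7 genes at this level became 15 at the same total, of which 3 were higher, against 4.37% of all tested genes, and 12 lower, against 10.7%. Without APCmin/+ replicate 3 there were 4, beside 5.09% of all tested genes higher and 3.49% lower. Without knockout replicate 2 there were 11, beside 9.22% higher and 5.98% lower.

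The most abundant genes of these lists were *Psenen* in crypts (mean FPKM 49.7) and *Ncstn* in tumors (68.0) among the processing enzymes, *Epn1* (94.1 and 81.9) for trafficking and *Ctbp1* (50.9 and 57.7) among the nuclear cofactors. Among the targets *Olfm4*, which also marks crypt stem cells, was highest in crypts (789.8) and under the filter in tumors, where *Hes6* led (194). Among further receptors and ligands *Notch4* led in crypts (1.23) and *Nov* in tumors (16.9). None of these most abundant genes passed adjustment.

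Of 26 other factors of the secretory lineages, 22 were tested in crypts, of which 17 were lower and 5 higher in ieCtnnb1KO, with a median log2 fold change of -0.25. Of all 14176 tested genes 6698 were lower, with a median of 0.01. At the same total 14 factors were lower and 8 higher, with a median of -0.115 against 0.14 over all tested genes. None passed adjustment, and 3 of the 22 had an unadjusted p under 0.05, all lower, against 2.36% of all tested genes. At the same total 2 were at this level, all lower, against 1.12%. *Bhlha15*, which builds the secretory apparatus, was 11.1, 17.1 and 15.9 in wild type and 6.86, 7.84 and 11.0 in ieCtnnb1KO. *Lmx1a* and *Rfx6*, factors of enteroendocrine cells, were 0.666, 0.982 and 0.864 against 0.235, 0.404 and 0.398, and 2.72, 2.01 and 2.35 against 1.44, 1.53 and 1.99. Without ieCtnnb1KO replicate 1 there was 1 factor at this level, beside 1.72% of all tested genes higher and 1.54% lower. In tumors 12 were tested, of which 8 were higher and 4 lower, against 8586 and 8157 of all tested genes. The median of the 12 factors was 0.19, against 0.01 over all tested genes. At an unadjusted p under 0.05 there were 4, all higher, against 8.46% of all tested genes. With the same total, and also without the 50 highest genes in it, 1 was higher and 2 were lower at this level, against 4.37% and 10.7% of all tested genes at the same total. *Xbp1*, a factor of the secretory stress response and the most abundant of the list in both tissues, was 77.8, 66.2 and 66.5 in APCmin/+ and 89.4, 89.6 and 96.1 in APCmin/+;ieCtnnb1KO. *Klf4*, a factor of goblet cells, was 31.7, 30.8 and 40.6 against 42.9, 61.4 and 41.8. *Creb3l1* and *Foxa3* were higher by log2 fold changes of 0.43 (limma, adjusted p = 0.296) and 0.33 (limma, adjusted p = 0.33). Of the 12 factors 7 were higher at the same total, against 6152 of all 16743 tested genes. Without APCmin/+ replicate 2 there was 1 factor at an unadjusted p under 0.05, beside 5.05% of all tested genes higher and 3.3% lower.

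In bulk tissue, fewer cells of a type and less RNA per cell cannot be told apart, so that the marker lists of the cell types are given beside these genes. In tumors all 14 goblet markers were higher in APCmin/+;ieCtnnb1KO, with a median log2 fold change of 0.96, and 13 had an unadjusted p under 0.05; none passed adjustment. The 13 genes stand against 8.46% of all tested genes, and all 14 were higher under every scaling. Their summed FPKM was 1625, 1674 and 1723 in APCmin/+ and 3085, 3713 and 3245 in APCmin/+;ieCtnnb1KO, a 2.0-fold difference of the means (exact permutation test, p = 0.1). None of the 14 was listed at 0. *Spink4* was the most abundant (499, 601 and 637 against 1201, 1176 and 1073), and *Ramp1* (6.38, 7.76 and 7.61 against 12.3, 14.3 and 12.03) and *Zg16* (155, 180.2 and 178 against 295, 326 and 403) had the smallest p. The mucin gene *Muc2*, named after its values were seen, was 151, 123 and 114 against 259, 419 and 295. The part of goblet cell number in the higher *Spdef* and *Atoh1* was not tested.

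Markers of other cell types are given in the same way for tumors, where none of them passed adjustment and 8586 of all 16743 tested genes were higher. All 10 epithelial markers were higher in APCmin/+;ieCtnnb1KO, with a summed FPKM of 4608, 4652 and 4070 against 5440, 5290 and 5659, led by *Krt8*, with the smallest p for *Krt20* and *Vil1*. Of 14 endothelial markers 12 were higher (summed 118, 103 and 91.1 against 134, 124 and 137; most abundant *Plvap*; smallest p for *Pecam1* and *Esam*). Of 14 mesenchymal markers 12 were higher (summed 692, 519 and 591 against 714, 818 and 766; most abundant *Vim*; smallest p for *Col6a1* and *Pdgfra*). These 3 lists were without overlap between the groups as deposited (exact permutation test for each, p = 0.1), but the mesenchymal sums overlapped at the same total, where 10 endothelial markers were higher. At an unadjusted p under 0.05, 3 epithelial, 4 endothelial and 6 mesenchymal markers were higher, beside 8.46% of all tested genes. The counts were 1, 3 and 2 at the same total, beside 4.37%, and 5, 5 and 8 by voom, beside 6.47%. Without the libraries that express *Xist* they were 0, 1 and 1, beside 4.23%. *Notch4* and *Dll4* are also expressed by endothelial cells. Of 10 tested stem cell markers 9 were lower, with *Axin2* the most abundant and *Rnf43* and *Axin2* of smallest p. At an unadjusted p under 0.05, 3 were lower, beside 6% of all tested genes. The count was 3 at the same total, beside 10.7%, 3 by voom, beside 9.09%, and 2 without the libraries that express *Xist*, beside 2.97%. The summed levels of stem cell markers overlapped (396, 458 and 420.2 against 412, 350.3 and 352). Of 15 Paneth markers 11 were higher, but the summed levels overlapped (2567, 2762 and 2901 against 3417, 5423 and 2135), with *Lyz1* the most abundant and *Pnliprp2* and *Mptx2* lower at an unadjusted p under 0.05. Of 8 tested tuft markers 4 were higher and 4 lower, with *Lrmp* of smallest p and higher, and *Il25* was listed at 0 in every library. Tuft markers summed to 91.3, 90.4 and 78.1 against 84.4, 66.7 and 75.3, led by *Avil* (mean FPKM 50.4), and overlapped. At the same total the sums were lower without overlap, while 4 markers were higher and 4 lower. Enteroendocrine markers summed to 64.3, 176 and 77.0 against 87.8, 65.0 and 124, led by *Pyy*, with *Cpe* of smallest p and higher. Enterocyte markers summed to 101, 89.4 and 108 against 116, 249.9 and 149.9, led by *Car1* and without overlap except at the same total, with *Car1* and *Slc15a1* higher and *Anpep* lower at an unadjusted p under 0.05. Immune markers summed to 692, 361 and 605 against 614, 714 and 415, led by *Lyz2*, with *Gzma* of smallest p and lower. The part of these cells in the differences of the 10 genes was not tested.

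**Figure D4:**
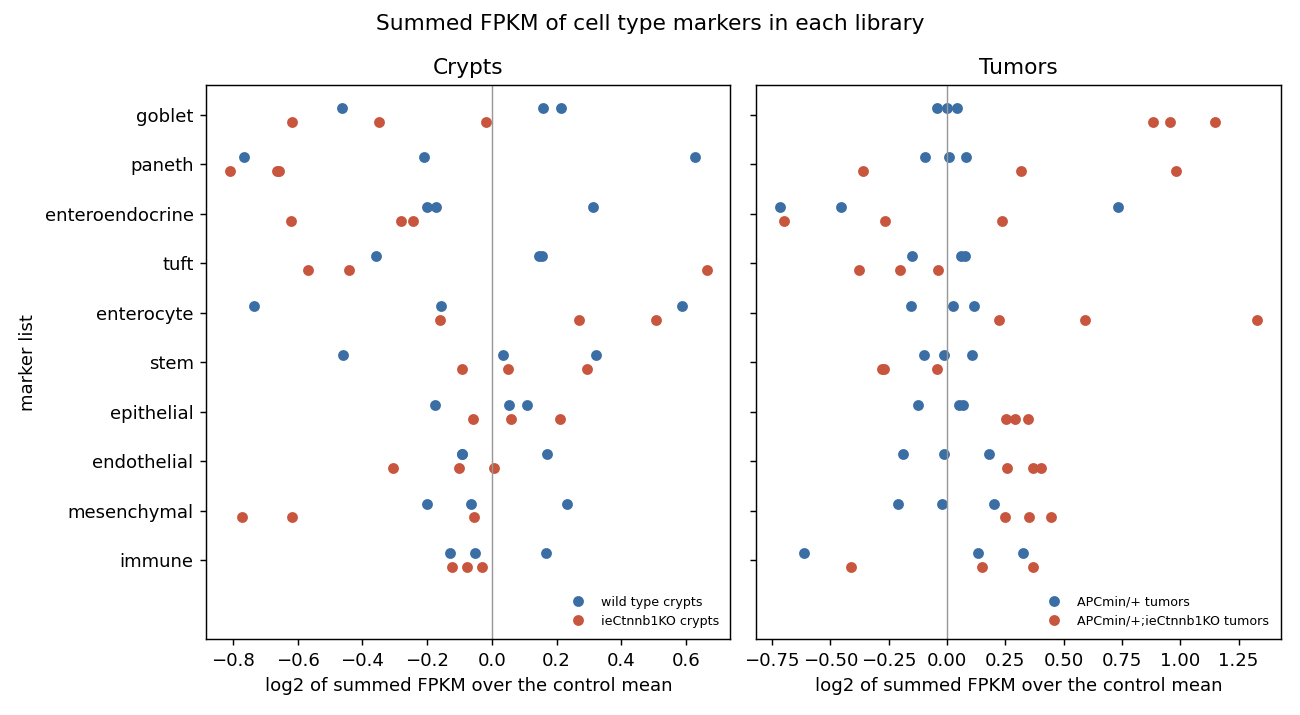
Summed FPKM of each list of cell type markers, as log2 of its ratio to the mean of the control group, in each crypt library (left) and tumor library (right). Knockout tumors lie above all controls for goblet, enterocyte, epithelial, endothelial and mesenchymal markers, and knockout crypts lie below all controls for enteroendocrine markers; scaled to the same total, enterocyte and mesenchymal markers overlap in tumors and enteroendocrine markers in crypts.

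In crypts most goblet, Paneth and enteroendocrine markers were lower in the knockout. Of 14 goblet markers 13 were lower in ieCtnnb1KO, of 15 Paneth markers 15, and of 16 enteroendocrine markers 15, with median log2 fold changes of -0.32, -0.52 and -0.36, while 13 of 13 tested enterocyte markers were higher, with a median of 0.45. With the same total 13 goblet, 12 Paneth and 13 enteroendocrine markers were lower, against 3753 of all 14176 tested genes. Without the 50 highest genes in the total 14 of 14 goblet, 15 of 15 Paneth and 15 of 16 enteroendocrine markers were lower. This held for 8259 of all tested genes. In that setting 12 enterocyte markers were higher, against 5917 of all tested genes. None passed adjustment. At an unadjusted p under 0.05 there were 1 goblet marker (*Ccl6*), 3 Paneth markers (*Mmp7*, *Habp2* and, named after its values were seen, *Pla2g2a*) and 6 enteroendocrine markers, led by *Scg2* and *Sst*, all lower, and 2 enterocyte markers, *Slc26a3* and *Mttp*, higher. Of all tested genes 2.36% were lower and 3.48% higher at this level. At the same total there were 1 lower and 1 higher enteroendocrine marker in place of 6 lower ones, and 2 lower Paneth markers in place of 3, beside 1.12% of all tested genes lower and 5.18% higher, whereas voom had 7 lower markers of each, beside 2.07%. Without the 50 highest genes in the total 2 goblet, 4 Paneth and 6 enteroendocrine markers were lower at this level, beside 3.58%. Summed FPKM of goblet markers was 6869, 10560.4 and 10989 in wild type and 6172, 7441 and 9359 in ieCtnnb1KO, led by *Tff3*. Paneth markers summed to 27750, 40864 and 73037 against 29939, 26948 and 29816, led by *Defa24*, which was 7359, 10163 and 32836 in wild type. Wild type replicate 1 lay near the knockout libraries for these lists, as it did for *Dll1*, *Dll4* and *Gfi1*. Enteroendocrine markers summed to 398, 390.2 and 557 against 292, 369 and 379, led by *Gip* (exact permutation test, p = 0.1; overlapping at the same total), beside a *Neurog3* level that overlapped. Enterocyte markers summed to 4597, 6874 and 11504 against 9237, 6859 and 10875, led by *Fabp2*. Sums of tuft markers (58.3 to 137, led by *Sh2d6*), stem cell markers (703 to 1209, led by *Olfm4*, with *Axin2* of smallest p), epithelial markers (4582 to 5990, led by *Krt8*) and immune markers (296 to 364, led by *Gzma*, with *Jchain* of smallest p) overlapped between the groups, although the epithelial sums were higher without overlap at the same total. Endothelial markers, led by *Esam*, summed to 2.72 to 3.78, and mesenchymal markers, led by *Vim* with *Col3a1* of smallest p, to 8.41 to 16.9. The part of these cells in the levels of the 10 genes was not tested.

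Without wild type replicate 1, 4 of the 10 genes had an unadjusted p under 0.05 in crypts, namely *Gfi1*, *Dll4*, *Dll1* and *Hes1*, with log2 fold changes of -0.64, -0.76, -0.55 and 0.41 and adjusted p of at least 0.425. Of all 14176 tested genes, 701 were then higher and 643 lower at this level, against 494 and 335 with all libraries. Without wild type replicate 3 the count among the 10 genes was 1, *Notch2*, and without ieCtnnb1KO replicate 3 it was 1, *Dll4*. Of all tested genes, 5.17% were higher and 2.48% lower at this level without wild type replicate 3. Without ieCtnnb1KO replicate 3 these were 2.95% and 2.38%. *Notch2* was -0.43 without wild type replicate 3 and -0.14 without wild type replicate 1, *Hes1* was 0.11 without wild type replicate 3 and 0.12 without ieCtnnb1KO replicate 1, and *Dll1* was -0.21 without wild type replicate 2. Over all tested genes, 3 crypt genes passed adjustment without wild type replicate 3.

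The genes most like *Atoh1* and *Hes1* were taken as those with the highest Pearson correlation of log2(FPKM + 0.5) over the 6 libraries of a tissue, among genes whose FPKM averaged 1 or more. For *Atoh1* in crypts they were *Zfp292* (r = 0.996), *Creb3l1* (r = 0.992) and *Pla2g10* (r = 0.988) of 12287 genes, and in tumors *Camta2* (r = 0.993), *Tmco3* (r = 0.990) and *Adipor2* (r = 0.986) of 14550. *Creb3l1* was among the secretory factors listed. For *Hes1* in crypts they were *Fdxacb1* (r = 0.991), *Parp11* (r = 0.989) and *Pofut1* (r = 0.986), of which *Pofut1*, the enzyme that puts O-fucose on Notch receptors, was among the Notch genes listed. In tumors they were *Wbp1* (r = 0.997), *Jpt1* (r = 0.991) and *Mrpl45* (r = 0.986). With 6 libraries and this many genes such values are a description only.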

How the data were processed

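Per the study's methods, the authors prepared libraries from total RNA of crypts or tumor tissue, sequenced them as paired-end reads, aligned these with Hisat2 and counted them with featureCounts. The submitters' processing notes name mm10, cutadapt, HISAT2, Cufflinks 2.2.1 and DESeq2. The authors deposited FPKM in 2 tables, and how they were scaled is not given in the sources used here. The median ratio to the geometric mean of each gene was equal in the 6 libraries of a table.

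From these values, fragments were recovered as described, and log2(FPKM + 0.5) was tested with limma 3.58.1 in R 4.3.3 (variance trend, mean FPKM of at least 0.5, no covariates, Benjamini-Hochberg over all tested genes, threshold 0.05), after a test on simulated data. Gene coordinates in the table equalled those of GENCODE for all 10 genes. Alternatives were pseudocounts of 0.1 and 1, no filter or a mean FPKM of at least 1, rescaled totals, no variance trend, a replicate block, voom and leaving out each library; the ratio of means without a pseudocount was added after the data were seen, and so were leaving out the libraries with *Xist*, the overlap of genes and summed lists at the same total, and the share of *Ctnnb1* in the fragments on genes. Named genes were the 10 genes and *Ctnnb1*, up to 4 genes per direction of smallest p among other pathway genes, up to 2 per marker list, and the most abundant of each list. The 10 genes and all lists were chosen with earlier results of these data known.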

Additional observations from a re-analysis of the deposited data

Results flagged for a closer look

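Among the 10 genes none differed without overlap in opposite directions in crypts and tumors. Among 154 listed genes tested in both tissues 3 did (1.95%), beside 109 of all 13370 genes tested in both (0.815%), and the difference between the tissues was not tested. As many as 11.4% of all tested genes in a tissue were without overlap in a direction, and none of the 3 genes passed adjustment. *Ccl6*, a goblet marker, was lower in all ieCtnnb1KO crypts than in any wild type crypts (log2 fold change -0.66) and higher in all knockout tumors (0.72), where the nearest libraries were 59.6 and 59.8 FPKM. *Crebbp*, a coactivator of the Notch complex, was higher in crypts (0.29) and lower in tumors (-0.19). *Esam*, an endothelial marker, was lower in crypts (-0.17) and higher in tumors (0.66).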

How the results depend on the processing

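Of 21 log2 fold changes of the 10 genes and *Ctnnb1*, 12 kept their sign in all alternatives, among them *Spdef*, *Atoh1*, *Notch1* and *Ctnnb1* in tumors. The others changed sign in at least 1 alternative. With the same total *Hes1* in tumors was -0.060, *Jag1* 0.11 in crypts and -0.075 in tumors, and *Notch1* in crypts 0.11. Without the 50 highest genes in the total *Hes1* in tumors was -0.061, *Jag1* in tumors -0.076 and *Neurog3* in crypts -0.017. By voom *Jag1* was 0.034 in crypts and -0.021 in tumors, and *Notch1* in crypts 0.0025. Without the libraries that express *Xist*, chosen after seeing the data, *Dll1* in tumors was -0.023 and *Hes1* -0.13. With each library left out in turn, crypt values ran from -0.48 to 0.0020 for *Atoh1*, -0.48 to 0.0037 for *Spdef*, -0.22 to 0.11 for *Jag1*, -0.045 to 0.13 for *Neurog3* and -0.097 to 0.046 for *Notch1*, and tumor values from -0.32 to 0.0084 for *Dll4*, -0.11 to 0.17 for *Hes1* and -0.059 to 0.12 for *Jag1*. The cause was not tested.

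Genes past adjustment, 0 in each tissue, were 1 in tumors without a variance trend and 0 to 3 in crypts with a library left out. At an unadjusted p under 0.05, the 0 of the 10 genes in crypts became 2 without the 50 highest genes in the total, 1 by voom and 0 to 4 with a library left out. The 0 other Notch genes in crypts became 1 with no filter, 1 without the 50 highest genes, 1 without a variance trend, 1 by voom and 0 to 3 with a library left out. Of all tested crypt genes, 2.67% were higher and 2.38% lower with no filter, and 2.01% and 3.58% without the 50 highest genes. These were 3.08% and 2.76% without a variance trend, and 3.19% and 2.07% by voom. With a library left out they ran from 1.72% to 5.17% and from 1.54% to 4.54%. The 7 other Notch genes in tumors became 15 with the same total, 16 without the 50 highest genes and 15 by voom. There were 3 without the *Xist* libraries and 4 to 11 with a library left out. Of all tested tumor genes, 4.37% were higher and 10.7% lower with the same total, and 4.36% and 11.7% without the 50 highest genes. These were 6.47% and 9.09% by voom, and 4.23% and 2.97% without the *Xist* libraries. With a library left out they ran from 5.05% to 9.73% and from 3.3% to 6.73%. The 3 other secretory factors in crypts became 1 with a mean FPKM of at least 1 and 1 to 4 with a library left out. The 4 in tumors became 2 with a replicate block and 1 to 5 with a library left out. With a mean FPKM of at least 1, 3.65% of all tested crypt genes were higher and 2.12% lower. With the block 6.93% of all tested tumor genes were higher and 4.31% lower. The block called 0 genes in each tissue. The labels do not say whether replicate numbers pair libraries. Of the 6 numbers only tumor replicate 3 had its best correlation with its own number. With 3 libraries a group such correlations cannot exclude a pairing. At an unadjusted p under 0.05, the 3 of the 10 genes in tumors became 4 with no filter, beside 5.25% of all tested genes higher and 4.66% lower. There were 2 with the same total, 2 without the 50 highest genes, 2 without the *Xist* libraries and 2 to 3 with a library left out. The gene added with no filter was *Neurog3* (log2 fold change 0.32, SE 0.0935, limma, unadjusted p = 0.0129, adjusted p = 0.429). *Neurog3* in tumors rests on 0 to 6 fragments a library, which limits any fold.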
